A study of Mus musculus with 12 samples.

Results

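The genes described here belong to the response to transforming growth factor beta (TGF-beta) and bone morphogenetic proteins (BMP). They were 10 genes chosen by name, with earlier results of these data known. These were the inhibitors of DNA binding Id1, Id2, Id3 and Id4, the signal proteins Smad3, Smad6 and Smad7, and the ligand genes Bmp4, Tgfb1 and Inhba. The array named its probes by transcript accession, and 14 of its 41174 gene probes belonged to these 10 genes, among 18217 genes that could be named. Id1, Id2, Id4 and Smad3 had 2 probes each and the other genes had 1. All 14 probes were well above background on all 12 arrays.

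The arrays held RNA of 3T3-L1 cells, an established line of mouse embryonic fibroblasts that behave as preadipocytes and can be turned into fat cells by hormones. Confluent cells were harvested at 0 h without hormones, or 6 h after a change to a medium with 0.5 mM isobutylmethylxanthine, 1 µM dexamethasone and 5 µg/ml insulin. Lysates were spun through sucrose gradients. The pool called polysomal, with the messages loaded with ribosomes, came from gradient fractions 9 to 11, and the non-polysomal pool from the lighter fractions 5 to 7. Each of the 4 groups (0 h and 6 h, non-polysomal and polysomal) had 3 arrays, which the methods call biological replicates. The growth medium held newborn bovine serum and the hormone medium fetal bovine serum, so the hormones and the change of serum cannot be told apart.

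In this pathway, a ligand outside the cell joins receptor kinases of both types, which phosphorylate the receptor Smads. These pair with Smad4 and enter the nucleus, Smad3 on the TGF-beta and activin side and Smad1, Smad5 and Smad9 on the BMP side. Smad6 and Smad7 are the inhibitory Smads, which are made in answer to the signal and damp it. The Id proteins are helix-loop-helix proteins without a DNA-binding region. They hold E proteins in dimers that cannot bind DNA, and their genes are classic targets of BMP signals. In the fat lineage BMP4 is known to commit precursor cells, while TGF-beta and activin A, the dimer made from Inhba, are known to hold back the later differentiation of preadipocytes.

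Values are log2 signals after background subtraction, scaled by the spike-in RNA added to each sample, and a difference of 1 is a doubling. A probe was called when the log2 difference passed 1 in either direction with an adjusted p below 0.05 in limma's test over all probes. Scaled this way, the median change of all probes between 0 h and 6 h was 0.54 among polysomal and 0.04 among non-polysomal arrays. The spike-in offset of the 6 h polysomal arrays lay between -0.48 and -0.21, against 0.05 to 0.17 on the other 9 arrays. The spike-ins did not shift alike, since the 5 brightest differed by -0.28 to -0.02 between the 6 h polysomal and the other arrays and the 5 dimmer ones by -0.91 to -0.76. From the dimmer ones alone the offset was -0.85 to -0.43 on the 6 h polysomal arrays and 0.07 to 0.31 on the others. How much of the general rise belonged to the cells and how much to the spike-ins was not tested, so changes are also given relative to the median of all probes.

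All 10 genes were higher in the polysomal fraction at 6 h than at 0 h. Since they were chosen with earlier results of these data known, the shares of all probes beside them are descriptions. The 14 probes were all called, by 1.09 to 4.21 on the log2 scale with a median of 2.92, while 19.2% of all probes were called above 1 and 5.01% below -1. Every 6 h array lay above every 0 h array for all 14 probes, as it did for 59.5% of all probes. In the non-polysomal fraction 10 of the 14 probes rose, by 1.36 to 3.37, against 8.09% of all probes called above 1 and 8.14% below -1 (12.5% each of detected probes). There 13 of the 14 probes had all 6 h arrays above all 0 h arrays, against 24.5% of all probes. The exceptions to the non-polysomal rise were Id3, both probes of Smad3 and Bmp4. Relative to the median of all probes, 11 of the 14 polysomal changes and 10 of the 14 non-polysomal changes still passed 1. With each array scaled by its 75th percentile instead of the spike-ins, 11 probes were called in the polysomal fraction (8.7% of all probes) and 10 in the non-polysomal fraction (7.25%), and the polysomal calls of Bmp4 (0.95) and of both Smad3 probes (0.68 and 0.60) were lost.

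**Figure D1:**
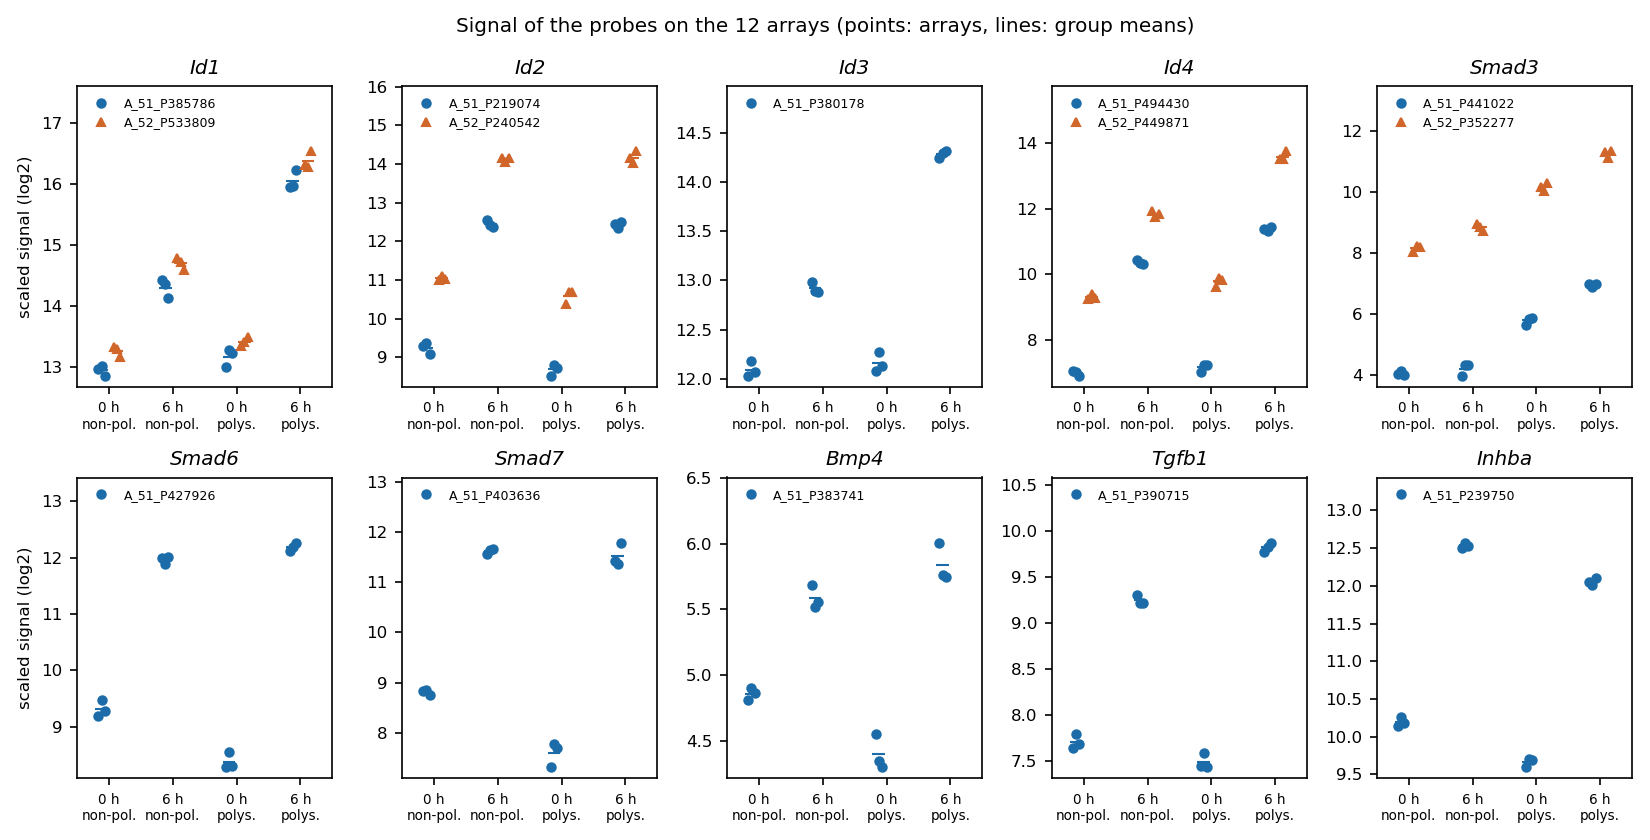
Scaled log2 signal (y axis) of each of the 14 probes on the 12 arrays, 1 panel a gene, with the 4 groups on the x axis. Points are arrays, short lines are means of 3 arrays, and triangles mark the second probe of a gene. In every panel the 6 h polysomal points lie above the 0 h polysomal points, and levels are not comparable between probes.

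Of the 3 roles the Id probes had the highest median polysomal rise, 3.58 over 7 probes. The 4 Smad probes had a median of 2.49, but 2 of them were of Smad3 (1.16 and 1.09). Smad6 (3.81) and Smad7 (3.94) each stood above the Id median. Id4, on chromosome 13 (48261116 to 48266028, mouse build GRCm38.p6, as are all positions here), is the member of the Id family best known from neural precursors. Its probe A_52_P449871 read 9.25, 9.40 and 9.27 on the 0 h non-polysomal arrays and 11.92, 11.76 and 11.85 at 6 h. On the polysomal arrays it read 9.61, 9.90 and 9.83 at 0 h and 13.50, 13.51 and 13.74 at 6 h. No array of 6 h came near an array of 0 h in either fraction. The polysomal change was 3.80 ± 0.10 (SE; adjusted p = 2.2e-09), a 14.0-fold rise, and the non-polysomal change was 2.53 ± 0.10. The other probe, A_51_P494430, rose by 4.21 ± 0.09 in the polysomal fraction, 18.5-fold, and by 3.37 ± 0.09 in the non-polysomal fraction.

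Id2, on chromosome 12 (25093799 to 25096092), rose in both fractions, somewhat more in the polysomal one. Its probe A_52_P240542 read 11.01, 11.11 and 11.01 on the 0 h non-polysomal arrays and 14.15, 14.04 and 14.16 at 6 h. The polysomal arrays read 10.37, 10.69 and 10.69 at 0 h and 14.14, 14.03 and 14.32 at 6 h. At 0 h the polysomal arrays lay below the non-polysomal ones, and at 6 h both fractions overlapped. Polysomal signal changed by 3.58 ± 0.11 (adjusted p = 4.1e-09), a 12.0-fold rise, and the non-polysomal change was 3.07 ± 0.11, an 8.41-fold rise. The other Id2 probe gave 3.75 and 3.20.

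Id1, on chromosome 2 (152736251 to 152737410), had the highest M-value of the 10 genes, where the M-value is the polysomal change minus the non-polysomal change. Its probe A_52_P533809 read 13.33, 13.30 and 13.16 on the 0 h non-polysomal arrays, and the 0 h polysomal arrays were close to these at 13.34, 13.41 and 13.49. By 6 h the non-polysomal arrays had reached 14.79, 14.72 and 14.59, and the polysomal arrays 16.31, 16.29 and 16.53. The lowest 6 h polysomal array thus stood above the highest 6 h non-polysomal array. The polysomal change was 2.96 ± 0.09 (adjusted p = 4.9e-09), a 7.80-fold rise, against a non-polysomal change of 1.44 ± 0.09, a 2.71-fold rise. The other Id1 probe gave 2.88 and 1.36.

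Id3, on chromosome 4 (136143822 to 136145392), passed the call in the polysomal fraction alone. Its arrays read 12.03, 12.19 and 12.07 (0 h non-polysomal), 12.99, 12.89 and 12.88 (6 h non-polysomal), 12.08, 12.27 and 12.13 (0 h polysomal) and 14.24, 14.30 and 14.31 (6 h polysomal). The fractions overlapped at 0 h and were apart at 6 h. Id3 changed in the polysomal fraction by 2.12 ± 0.08 (adjusted p = 9.9e-09), a 4.35-fold rise. The non-polysomal change was 0.83 ± 0.08, with an adjusted p of 9.5e-06 but below the required size.

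The Smads divided by type. Smad7, on chromosome 18, and Smad6, on chromosome 9 (63953076 to 64022085), the inhibitory Smads, were among the most raised of the 10 genes. Smad7 read 8.83, 8.84 and 8.75 on the 0 h non-polysomal arrays and 11.56, 11.65 and 11.66 at 6 h. Its polysomal arrays read 7.31, 7.78 and 7.69 at 0 h and 11.43, 11.36 and 11.79 at 6 h. The polysomal fraction was thus clearly the lower of the pair at 0 h and overlapped the non-polysomal fraction at 6 h. The polysomal change was 3.94 ± 0.14 (adjusted p = 9.3e-09), a 15.3-fold rise, and the non-polysomal change was 2.82 ± 0.14, a 7.05-fold rise.

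Smad6 followed the same order. The 0 h arrays read 9.19, 9.47 and 9.27 in the non-polysomal and 8.28, 8.54 and 8.29 in the polysomal fraction, and the 6 h arrays 11.99, 11.89 and 12.01 and 12.11, 12.18 and 12.26. The polysomal arrays therefore went from below the non-polysomal arrays to slightly above them. Smad6 changed in the polysomal fraction by 3.81 ± 0.10 (adjusted p = 2.1e-09), a 14.1-fold rise, and the non-polysomal change was 2.65 ± 0.10, a 6.27-fold rise.

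Smad3, the receptor Smad among the 10 genes, lies on chromosome 9 (63646766 to 63757994) and changed least. Its probe A_52_P352277 read 8.04, 8.23 and 8.20 on the 0 h non-polysomal arrays and 8.96, 8.83 and 8.72 at 6 h. Its polysomal arrays read 10.15, 10.01 and 10.30 at 0 h and 11.29, 11.12 and 11.32 at 6 h. Both fractions were well apart at both times, with the polysomal one higher. The polysomal change was 1.09 ± 0.10 (adjusted p = 8.7e-06), a 2.13-fold rise, or 0.55 above the median of all probes. The other Smad3 probe, A_51_P441022, gave a polysomal change of 1.16 ± 0.11, with 0.62 left above that median. Their non-polysomal changes of 0.68 and 0.15 were not called, and the arrays of the second probe overlapped between the times.

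Among the ligand genes Inhba was the one whose polysomal and non-polysomal changes were alike. Inhba, on chromosome 13 (16004256 to 16031609), encodes the subunit of activin A. It read 10.14, 10.25 and 10.18 on the 0 h non-polysomal arrays and 12.51, 12.57 and 12.53 at 6 h, and 9.60, 9.71 and 9.70 on the 0 h polysomal arrays and 12.05, 12.01 and 12.10 at 6 h. The non-polysomal arrays were the higher ones at both times. Polysomal Inhba signal changed by 2.39 ± 0.07 (adjusted p = 2.4e-09), a 5.23-fold rise, and the non-polysomal change was 2.35 ± 0.07, a 5.09-fold rise.

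Tgfb1, the gene of TGF-beta1 on chromosome 7 (25687002 to 25705077), read 7.64, 7.78 and 7.68 on the 0 h non-polysomal arrays and 9.30, 9.21 and 9.22 at 6 h. In the polysomal fraction it read 7.44, 7.58 and 7.43 at 0 h and 9.78, 9.82 and 9.87 at 6 h. Polysomal Tgfb1 signal changed by 2.34 ± 0.07 (adjusted p = 4.6e-09), a 5.06-fold rise, and the non-polysomal change was 1.54 ± 0.07, a 2.92-fold rise. The polysomal arrays were the lower ones at 0 h and the higher ones at 6 h.

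Bmp4, on chromosome 14 (46383525 to 46390669), had 10 spots on an array, of which 7 to 10 were used, and these differed with an SD of 0.12 to 0.26. It read 4.81, 4.90 and 4.86 on the 0 h non-polysomal arrays and 5.69, 5.52 and 5.55 at 6 h, and 4.55, 4.35 and 4.30 on the 0 h polysomal arrays and 6.00, 5.76 and 5.74 at 6 h. The times did not overlap in either fraction. The polysomal change was 1.44 ± 0.10 (adjusted p = 7.7e-07), a 2.71-fold rise. The non-polysomal change of 0.73 ± 0.10 was not called.

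**Figure D2:**
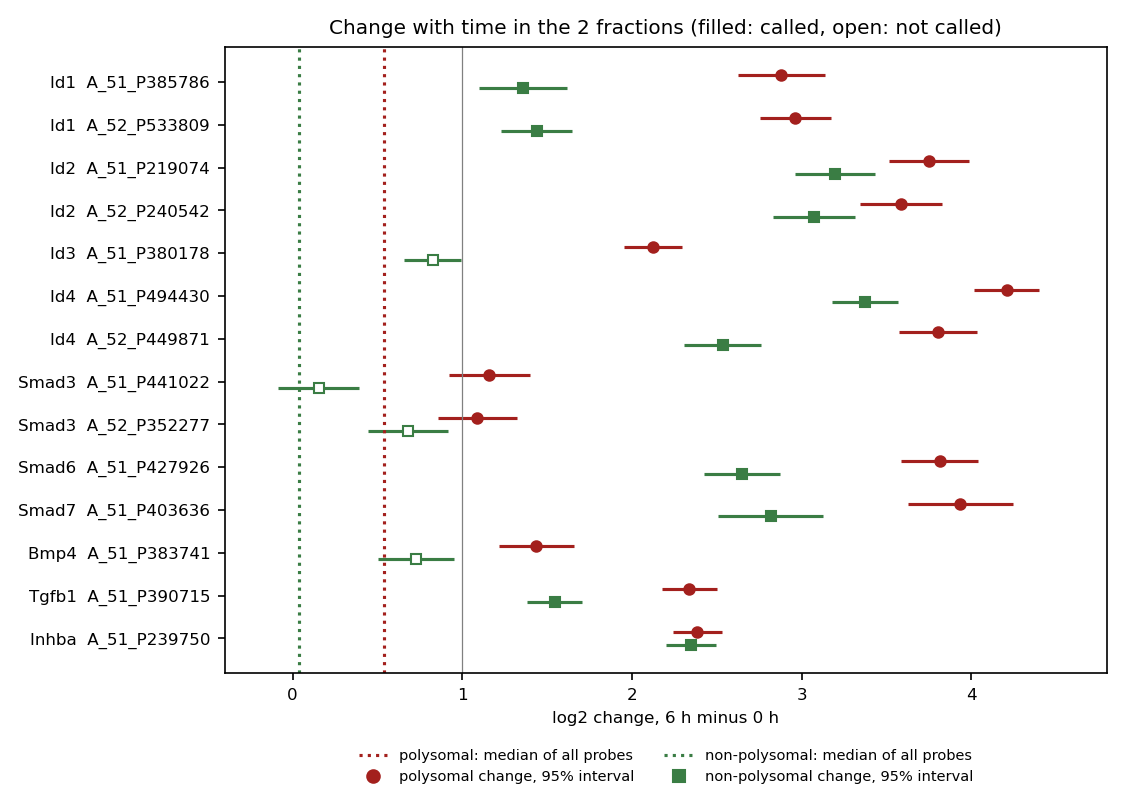
Log2 change from 0 h to 6 h (x axis) of the 14 probes (y axis) in the polysomal fraction (circles) and the non-polysomal fraction (squares), with 95% intervals from limma. Filled marks were called, the grey line stands at a change of 1, and dotted lines are the medians of all probes in each fraction (0.54 and 0.04). The polysomal mark lies to the right of the non-polysomal mark for every probe, nearly on top of it for Inhba.

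The difference between both changes, the M-value, asks whether a message moved towards the polysomes beyond its change in the non-polysomal pool. It was positive for all 14 probes, between 0.04 and 1.53, except that Inhba turned negative with the 75th percentile (-0.38) and quantile normalization (-0.31), as did the Smad3 probe A_52_P352277 (-0.01 and -0.15). The spike-in scaled values had a median of 0.92 against a median of 0.49 for all probes. Of the 14 probes 7 were called above 1, against 12.1% of all probes called above 1 and 1.31% below -1 (17.7% and 2.05% of detected probes). These were both probes of Id1 (1.53 and 1.52), Id3 (1.30), 1 probe of Id4 (1.27), Smad6 (1.16), Smad7 (1.12) and 1 probe of Smad3 (1.01). Id1 had an adjusted p of 2.6e-05 and 9.0e-05, and Id3 one of 2.1e-05. The other Id4 probe gave 0.84, and the other Smad3 probe gave 0.41 with an adjusted p of 0.054.

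The M-values of the ligand genes were not called. Tgfb1 had 0.79 and Bmp4 0.71. Inhba had 0.04, with a 95% interval of -0.17 to 0.25, which lies below the median of all probes. Id2 had 0.55 and 0.51 (adjusted p = 0.016 and 0.026), close to that median. Only both probes of Id1 stood more than 1 above the median of all probes (by 1.04), and only they were called with the 75th percentile scaling, at 1.10 each, where 3.75% of all probes were called above 1. Under that scaling the other called probes gave 0.87 (Id3), 0.85 (Id4), 0.74 (Smad6), 0.70 (Smad7) and 0.58 (Smad3).

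Each replicate number stood for 1 slide that held an array of every group, so the M-value could also be taken within each slide. Id1 gave 1.51, 1.46 and 1.61 with its probe A_52_P533809, and Id3 gave 1.21, 1.32 and 1.36. Smad6 gave 1.04, 1.23 and 1.23, and Smad7 gave 1.39, 0.78 and 1.19. The called Smad3 probe, A_51_P441022, gave 1.39, 0.83 and 0.80, so that only the first slide exceeded 1. Without replicate 1 this Smad3 probe had an M-value of 0.81 and Smad7 one of 0.99, and neither was called. The Smad3 call was also lost, at 0.89 to 0.99, without the first 0 h polysomal, 6 h non-polysomal or 6 h polysomal array, the second 0 h non-polysomal array or the third 6 h polysomal array. The Smad7 call was lost without the first 0 h polysomal array (0.98) or the third 6 h polysomal array (0.99). Inhba stayed near 0 on every slide, at 0.08, -0.01 and 0.05.

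**Figure D3:**
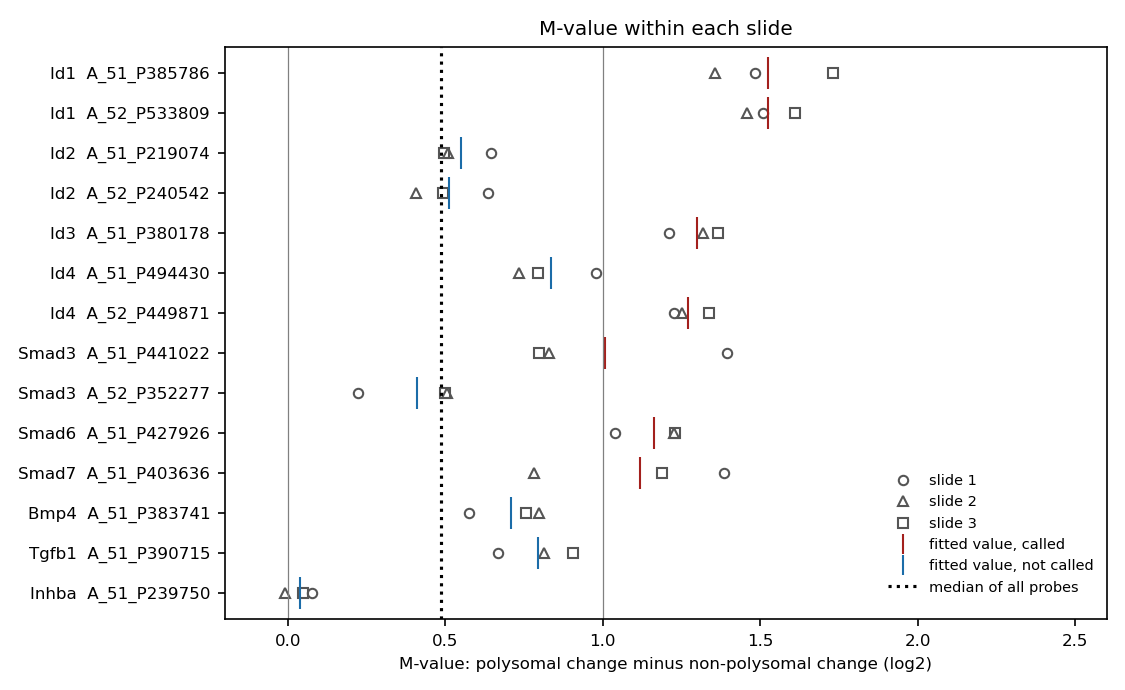
M-value (x axis, log2) of the 14 probes (y axis) within each of the 3 slides (open marks) and from the fit (vertical ticks, red where called). The dotted line is the median of all probes at 0.49. The 3 slides lie closest together for Inhba and for the called probe of Id4, and farthest apart for Smad7 and for the called probe of Smad3.

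The place of each message in the gradient before the hormones was compared next. At 0 h both Smad3 probes were called higher in the polysomal than in the non-polysomal fraction, by 2.00 and 1.73. Of all probes 27.4% were called higher, and of detected probes 43.5%. Smad7 was called lower, with a difference of -1.21, as were 9.81% of all and 14.5% of detected probes. Smad6 came next at -0.94, which was not called, and Id2, Inhba, Bmp4 and Tgfb1 lay between -0.56 and -0.22. At 6 h 7 probes were called higher in the polysomal fraction, against 37.4% of all and 55.5% of detected probes, and none lower, against 6.41% and 9.94%. They were those of Smad3 (2.74 and 2.41), Id1 (1.75 and 1.68), Id4 (1.75 and 1.01) and Id3 (1.36). These differences between fractions rest on the scaling more than the changes with time. With the 75th percentile 1 probe was called higher and 7 lower at 0 h, against 11.6% and 26.7% of all probes. At 6 h 2 were called higher and 6 lower, against 12.3% and 22.2%, and the higher ones were Smad3 in both cases. Under that scaling the 6 h differences of Id2, Smad6, Smad7, Bmp4 and Inhba were all called lower, by -1.06 to -1.80.

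**Figure D4:**
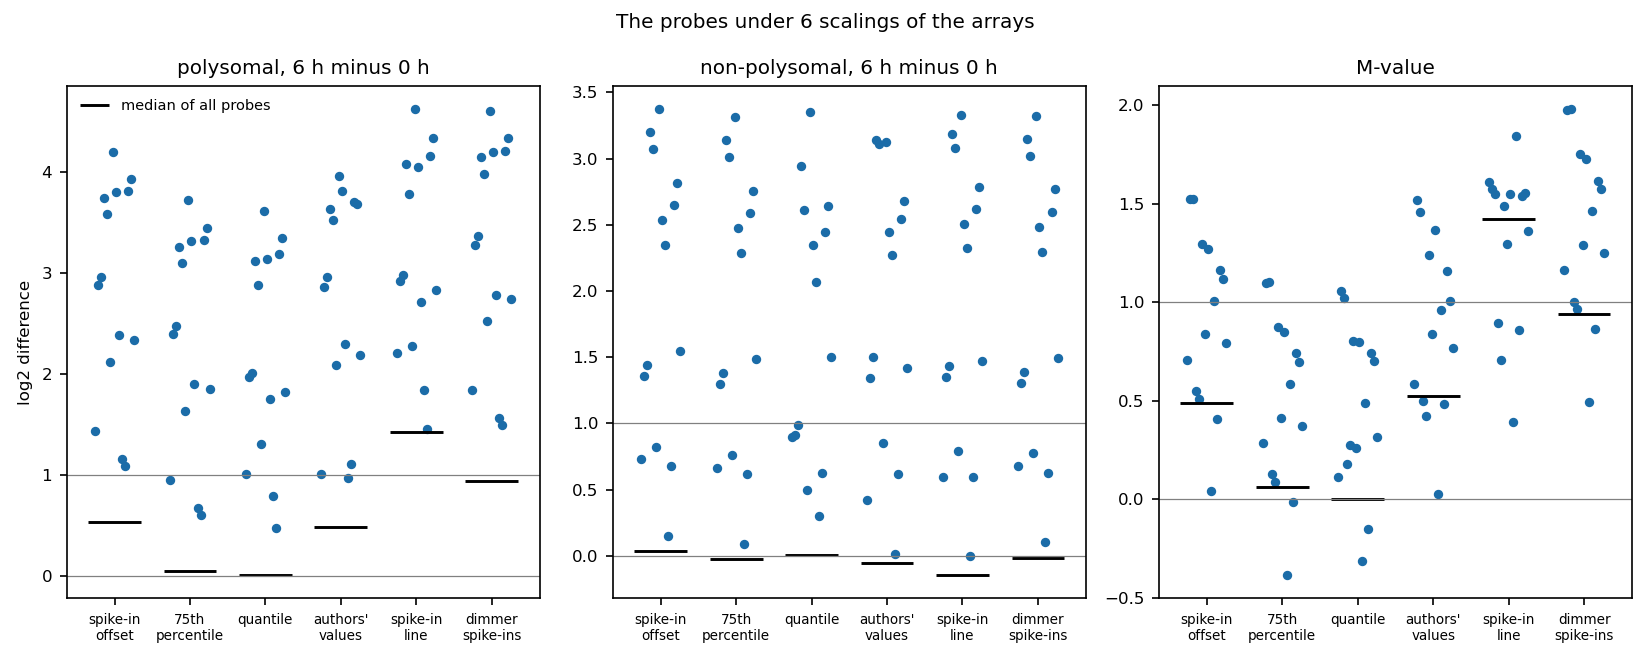
Log2 difference (y axis) of the 14 probes (points) under 6 ways of scaling the arrays (x axis) for the polysomal change, the non-polysomal change and the M-value, with the median of all probes as a black line. The polysomal changes stay positive under each scaling, while the M-values move with the median of all probes, which runs from near 0 with quantile normalization to 1.42 with a line fitted to the spike-ins.

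Short DNA motifs were read from the RefSeq promoter table, which gives the 250 bases before and 50 bases after each gene start and held 8 of the 10 genes, without Id1 and Smad7. The letters GTCTAGAC, the palindrome first known as a Smad binding element, were found in 70 of 32851 promoters (0.213%) and in that of Smad6. There they spanned the start used for the promoter, which lies inside the gene position given above (63953076 to 64022085, minus strand). The shorter Smad-type letters CAGAC, which does not occur within the palindrome, was in 49.6% of all promoters and, of the 8 genes, in Id3 alone. The GC-rich letters GGCGCC, bound by Smads in BMP target genes, were in 11.9% of all promoters and in those of Id2 and Id4. TGACG, the core of the element bound by CREB, the factor activated by cyclic AMP, was in 20.8% and in those of Id3 and Id4, and the full TGACGTCA was in 1.79% and in none of the 8. The E box CANNTG was in 72.3% and in Id2, Smad6 and Bmp4, and TATAAA was in 13.6% and in Inhba. All motifs were read on both strands. A stretch around a Smad-type match is shown for each gene whose promoter holds one. It is given 5′ to 3′ on the strand of the gene, with the match in capitals:
Smad6, chr9:64022056-64022115, minus strand: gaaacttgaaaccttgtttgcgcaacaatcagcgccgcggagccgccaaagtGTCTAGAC
Id3, chr4:136143631-136143683, plus strand: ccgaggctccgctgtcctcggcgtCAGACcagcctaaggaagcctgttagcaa
Id2, chr12:25096288-25096342, minus strand: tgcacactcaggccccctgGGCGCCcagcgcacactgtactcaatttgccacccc
Id4, chr13:48260944-48260997, plus strand: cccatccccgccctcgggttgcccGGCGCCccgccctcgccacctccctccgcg
In Id3 the CAGAC match shown, at -167 from the start, overlapped the TGACG match of the other strand. A further CAGAC match of Id3, on the other strand at -68, is not shown. A match is a description of the letters and was not tested as a site.

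The other genes of the pathway moved in both directions. Their counts stand beside 19.2% of all and 27.1% of detected probes called above 1 in the polysomal fraction, and 5.01% and 7.83% below -1. With the 75th percentile 8.7% of all probes were called above 1 there and 9.89% below -1. For the M-value, 12.1% of all and 17.7% of detected probes were called above 1, and 1.31% and 2.05% below -1. Of the other ligands 23 genes with 28 probes were on the array, and 2 probes rose and 3 fell in the polysomal fraction. With the 75th percentile 2 rose and 5 fell. Tgfb3, a further TGF-beta, rose by 2.71 ± 0.09 there and by 1.81 in the non-polysomal fraction. Gdf15, a stress-induced member of the family, fell by 2.25 in the polysomal and by 1.86 in the non-polysomal fraction. Gdf1 fell by 1.82 in the non-polysomal fraction, with a polysomal change of -0.73 that was not called and a called M-value of 1.09. Bmp7 had a called M-value of 1.33, with a polysomal change of 0.76 that was not called. With the 75th percentile neither M-value was called (0.66 and 0.91), and the polysomal change of Gdf1 was called at -1.22.

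Of 13 receptor genes with 18 probes, 5 probes rose and 1 fell in the polysomal fraction. With the 75th percentile 3 rose and 2 fell. Tgfbr1, the type I receptor of TGF-beta, rose by 2.20 with 1 probe, with a non-polysomal change of 2.13, and its other probe rose by 1.28 with a non-polysomal change of 0.07. Acvr2b, an activin receptor, was not well above background on any 6 h polysomal array and fell at least 3.44-fold (adjusted p = 2.8e-05). The coreceptor Eng fell by 1.38 in the non-polysomal fraction and had a called M-value of 1.12, with a polysomal change of -0.26 that was not called. The type I receptor Acvrl1 fell by 1.63 in the non-polysomal fraction and had a called M-value of 1.42, with a polysomal change of -0.21 that was not called. Both M-values lost their call with the 75th percentile (0.70 for Eng and 1.00 for Acvrl1, just under the limit). The other Smads, Smad1, Smad2, Smad4, Smad5 and Smad9, had 9 probes and none was called for either change with time. Their polysomal changes lay between -0.13 and 0.78, and 1 of the Smad4 probes had a called M-value of 1.03, which was 0.61 and not called with the 75th percentile.

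Secreted and membrane inhibitors and latency proteins had 20 genes with 28 probes, of which 10 rose and 1 fell in the polysomal fraction. Nbl1, a BMP antagonist, rose by 3.75 ± 0.08 there and by 3.17 in the non-polysomal fraction. Grem1, another BMP antagonist, fell by 1.71 in the polysomal fraction, with -0.97 in the non-polysomal fraction. Thbs1, which encodes thrombospondin-1, an activator of latent TGF-beta, had 2 probes with called M-values below -1 (-1.26 and -1.23), with non-polysomal rises of 1.93 and 1.78 and polysomal changes of 0.67 and 0.55 that were not called. Its other probe rose in both fractions, by 1.85 and 2.00, with an M-value of -0.15. With the 75th percentile 4 of the 28 probes rose and 2 fell in the polysomal fraction, against 8.7% and 9.89% of all probes.

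Among 15 genes of intracellular regulators with 28 probes, 11 probes rose in the polysomal fraction and none fell. With the 75th percentile 8 rose and 1 fell. Pmepa1, which takes receptor Smads out of the pathway, rose by 5.08 ± 0.11 and by 4.97 in the non-polysomal fraction. The corepressor Ski and the receptor-associated Strap had called M-values of 1.21 and 1.20, with polysomal rises of 1.30 and 1.91. With the 75th percentile neither M-value was called (0.79 and 0.77), nor was the polysomal change of Ski (0.81). Of 21 Smad target genes with 32 probes, 12 probes rose and 3 fell in the polysomal fraction. With the 75th percentile 10 rose and 4 fell. Klf11 was split between its probes. Its probe A_51_P205820 fell by 2.40 in the polysomal fraction, where 2 of 3 arrays of 6 h were well above background. On no 6 h non-polysomal array was it well above background, and it fell at least 4.41-fold in that fraction (adjusted p = 9.3e-08). The other fell by 1.75 in the non-polysomal fraction with a polysomal change of 0.12. Its called M-value of 1.87 ± 0.51 was 1.45 and not called with the 75th percentile. On the 6 h non-polysomal arrays this probe read 3.32, 3.24 and 1.73, and 2 of these 3 arrays were well above background. Tgfbi, an extracellular matrix protein, had a called M-value of 1.73, and Zeb2, a repressor that binds Smads, fell by 1.83 in the polysomal fraction with a called M-value of -1.10.

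The E proteins, which the Id proteins bind, were Tcf3, Tcf4 and Tcf12 with 6 probes. Both Tcf3 probes had called M-values, of 1.68 and 1.47, and both calls held with the 75th percentile (1.25 and 1.05). The first of them rose in the polysomal fraction, by 1.14, a call lost with the 75th percentile (0.66). Their non-polysomal changes were -0.53 and -0.78 and were not called. Both Tcf12 probes fell in the non-polysomal fraction, by 1.03 and 1.26, with polysomal changes of -0.19 and -0.68 that were not called, of which the second was called at -1.16 with the 75th percentile. Medians of the polysomal change were 3.58 for the Id genes and 0.07 for the E protein probes, beside 0.54 for all probes.

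For each of the 10 genes the probe of another gene with the most similar signal over the 12 arrays was looked up among the 16581 or 16582 named probes of other genes that were well above background on all arrays. Pearson's r was 0.999 for Inhba with Ucp2, a mitochondrial carrier. It was 0.999 for Smad6 with Tmem11, Id2 with Slc25a33, Tgfb1 with Slc35e1 and Id4 with Ggct, and 0.998 for Id1 with Mknk2, Id3 with Limk2, Smad3 with Mettl16 and Smad7 with Mrpl20. Bmp4 had the lowest, 0.989 with Asgr1. These correlations are over 12 arrays that share 4 groups and are given as descriptions.

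The labelled cell type was checked against its markers. All 10 fibroblast and preadipocyte markers, among them Pdgfra, Dlk1 and Col1a1, passed the background test of the scanner software on all 12 arrays. Of 7 markers of mature fat cells 4 did, and Lep and Cfd passed on none. Of the markers of other cells, Krt8 (of 4 epithelial genes) and Csf1r (of 4 leukocyte genes) passed on all 12 arrays and no endothelial gene did. Pecam1, Kdr, Tek, Epcam, Cdh1, Krt18 and Itgam passed on none. The summed signal of the fat cell markers lay between 37894 and 41704 in the non-polysomal groups, between 83621 and 99348 on the 0 h polysomal arrays and between 164962 and 171942 on the 6 h polysomal arrays. Fabp4 made most of this sum, with log2 means of 15.13 and 15.02 for 2 of its probes, against 5.50 or less for the other genes. Of the 10 fat cell probes 4 rose in the polysomal fraction (19.2% of all probes). Only 2 of these 4 were among the 6 fat cell probes well above background throughout at least 1 group. With the 75th percentile 1 rose and 1 fell (8.7% and 9.89% of all probes). The summed signal of the fibroblast markers also stood higher on the 6 h polysomal arrays (1518340 to 1552910) than on those of 0 h (1011690 to 1099020). The sums of the other cells were low. On the polysomal arrays the endothelial sum was 10.0 to 12.3 at 0 h and 41.7 to 56.9 at 6 h, and the epithelial sum 22.5 to 31.4 and 40.3 to 47.6. Of the 5 endothelial probes 1, for Cdh5, was called higher in the polysomal fraction under both scalings, and it was well above background on 3 arrays. The leukocyte sum lay between 57.7 and 257 on all 12 arrays. Their part in the changes of the 10 genes was not tested, and in a bulk sample fewer cells of a type and less RNA per cell cannot be told apart.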

How the data were processed

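RNA of 3T3-L1 cells from non-polysomal and polysomal gradient pools was hybridised to one-colour Agilent whole mouse genome arrays, 12 in all, after spike-in RNA had been added. Per the file headers, the deposited intensity values (processed signal) were background-subtracted and detrended within each array by Agilent Feature Extraction 10.7.1.1, and were not scaled between arrays. The log2 values deposited by the authors equalled the log2 median pixel signal, averaged per probe, plus a constant per array, had medians of 5.43 to 6.07, and were used as an alternative. Nothing about their scale or direction stayed unknown, but they hold no background subtraction.

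Here outlier spots were left out, spots were averaged per probe, and log2 intensities were scaled by the mean of the 10 spike-in transcripts of each array. Groups came from the sample labels. limma 3.58.1 in R 4.3.3 fitted the 4 groups together without a block, after the study's methods, and Benjamini-Hochberg adjustment ran over all gene probes with values in the groups compared (41155 to 41173 of 41174). A call needed an adjusted p below 0.05 and a log2 difference above 1 or below -1. The M-value was (6 h polysomal minus 6 h non-polysomal) minus (0 h polysomal minus 0 h non-polysomal). Transcript accessions were named through RefSeq (GRCm38.p6), which named 26690 probes. The fit was tested on simulated arrays with 200 changed probes. Where no array of a group measured a probe well above background, its fold is a bound ("at least"). With 3 arrays a group, the number of arrays limits the precision.

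Named here are all 14 probes of the 10 genes, and of each further list the highest and lowest called polysomal change and up to 2 called M-values a direction, among probes that passed the background test throughout at least 1 group. Some of these further genes are not reported here. The members and lists were chosen with earlier results of these data known. Alternatives were the 75th percentile, quantile normalization, a line through the spike-ins, the offset of the dimmer spike-ins (added after seeing the data), the authors' values, normexp with an offset of 50, dim probes left out, outlier spots kept, the replicate block, limma's variance trend, probes averaged per gene, and leaving out arrays.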

Additional observations from a re-analysis of the deposited data

Results flagged for a closer look

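The change with time differed between the polysomal and the non-polysomal fraction for 7 of the 14 probes, of 6 genes. For these, limma's test of the M-value gave an adjusted p below 0.05 and the size passed 1. Of all probes 12.1% were called above 1 in this way, and of detected probes 17.7%. For these 7 the M-value was 1.53 and 1.52 for the 2 probes of Id1, 1.30 for Id3, 1.27 for Id4, 1.16 for Smad6, 1.12 for Smad7 and 1.01 for Smad3. Each was above 0 on all 3 slides, but the fitted value is the mean of these slides, so this is no separate support. Only the 2 Id1 values were called when arrays were scaled by the 75th percentile or by quantile normalization, and those of Smad3 and Smad7 rested on single arrays.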

How the results depend on the processing

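The polysomal rise was the steadiest result. It was called for all 14 probes with any array or replicate left out, for 11 to 14 under the other alternatives, and for all 10 genes with probes averaged per gene. The non-polysomal rise was called for 10 probes with arrays left out, for 8 to 10 otherwise and for 7 of the 10 genes with probes averaged, and the 2 Id1 probes missed the size with quantile normalization (0.91 and 0.99). The count of M-values called above 1, 7 in the report, was 5 to 7 with arrays left out, 2 with the 75th percentile, 2 with quantile normalization, 0 with normexp, whose correction failed on 3 arrays and left no member with an adjusted p below 0.073, and 11 with the dimmer spike-ins. No M-value was called below -1 under any alternative. For polysomal minus non-polysomal signal at 0 h, the count above 1, 2 in the report, was 1 with the 75th percentile, 1 with the authors' values, 1 with probes averaged per gene and 0 with normexp. The count below -1, 1 in the report, was 7 with the 75th percentile, 6 with quantile normalization, 2 with the line through the spike-ins, 2 with normexp, 2 with the dimmer spike-ins, and 1 to 2 with arrays left out. At 6 h the count above 1, 7 in the report, was 2 with the 75th percentile, 1 with quantile normalization, 4 with probes averaged per gene, 9 with the line through the spike-ins, and 6 to 7 with arrays left out, and the count below -1, 0 in the report, was 6 with the 75th percentile and 5 with quantile normalization. Among the differences between the fractions that changed sign, those called with either setting were, at 6 h, Id2 (-1.26 with the 75th percentile, -1.06 with quantile normalization), Id4 (-0.30 and -0.39), Smad6 (-1.09 and -1.12) and Bmp4 (-1.06 with the 75th percentile), and, at 0 h, Smad3 (-0.51 with normexp). Uncalled values changed sign too, among them Tgfb1 at 6 h (0.58, and -0.74 with the 75th percentile) and, at 0 h, both probes of Id1, Id3 and both probes of Id4 (0.07 to 0.47, and -0.82 to -0.42 with the 75th percentile). Over all probes, 4981 M-values were called above 1, against 1545 with the 75th percentile, 1268 with quantile normalization, 15038 with the dimmer spike-ins, 26154 with the line through the spike-ins and 101 with normexp. A scaling that moves the median of all probes moves these values by its construction. With the replicate block the counts were 14, 10 and 7 for the polysomal change, the non-polysomal change and the M-value, as without it. Same-numbered arrays of different groups deviated together only in part, with r of -0.10 to 0.42 over 18 pairs (median 0.07, 4 over 0.1). Differently numbered arrays of different groups gave -0.38 to 0.21 over 36 pairs (median -0.04, 6 over 0.1). The numbers were therefore not taken as pairs.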
